A study of Bos taurus with 81 samples.

Results

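The regions described here are 10872 stretches of 5 kb of the cattle genome that lay under H3K9me3 peaks in the oocyte and in early cleavage and under none in the morula and the blastocyst. To find them, the 29 autosomes were divided into 497598 bins of 5 kb, and a bin counted as marked where peaks covered at least 50% of it. A bin was taken as erased where it was marked in both H3K9me3 peak lists of germinal vesicle oocytes, of 4-cell embryos and of 8-cell embryos, and in none of the 8 lists of morulae, blastocysts, inner cell mass and trophectoderm. The erased bins made up 2.18% of the autosomal bins, or 54.4 Mb of 2488 Mb. They were 68.0% of the 15992 bins marked in all 6 early lists, called early-marked bins below.

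The series holds 81 libraries of bovine oocytes and embryos produced in vitro, from ovaries of a slaughterhouse and thawed semen. CUT&Tag, which directs a DNA-cutting transposase to a histone mark with an antibody, was applied to H3K9me3, H3K27me3, H3K27ac and H3K4me3 in 9 groups with 2 libraries per mark and group. ATAC-seq, in which the same enzyme inserts into accessible DNA without an antibody, was applied to 3 of the groups with 3 libraries each. The groups were germinal vesicle oocytes taken before maturation (GV), embryos of 2 cells at 32 h after insemination (2C), of 4 cells at 44 h (4C) and of 8 cells at 56 h (8C), 8-cell embryos cultured with 50 μg/ml α-amanitin, an inhibitor of RNA polymerase II (8A), morulae at 122 h (MO), whole blastocysts at 172 h (BL), inner cell mass freed from blastocysts by immunosurgery (ICM), and trophectoderm cut from blastocysts with a micro scalpel (TE). ATAC libraries were of BL, ICM and TE, so open chromatin before the blastocyst was not analysed here. Each library pooled cells of many oocytes or embryos, about 500 oocytes or 1000 to 1500 blastomeres, and no breed or genotype is given. The labels do not say that the libraries of a group came from separate collections, so the spread between them may be technical.

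H3K9me3 is the mark of constitutive heterochromatin, laid down by enzymes such as SETDB1 and the SUV39H proteins and known for silencing repeats and transposable elements. H3K27me3 is deposited by the Polycomb complex PRC2 and is known as a mark of silenced developmental genes. H3K27ac, placed by the acetyltransferases p300 and CBP, marks active enhancers and promoters, H3K4me3 marks promoters, and ATAC-seq reads accessible DNA. In cattle the embryonic genome becomes broadly active at about the 8-cell stage, before the morula separates into the inner cell mass, which forms the embryo proper, and the trophectoderm, which forms the placenta.

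The H3K9me3 values follow from how the bins were chosen and are given as a description. By that choice all 10872 were marked in both lists of GV (against 6.06% of all autosomal bins), 4C (5.60%) and 8C (5.64%), and 0 were marked in MO (3.97% of all bins marked in both lists), BL (3.54%), ICM (3.21%) or TE (5.15%). Of all bases in the erased bins, H3K9me3 peaks covered 93.9% and 95.0% in the 2 GV libraries, 93.0% and 95.3% in 4C, and 93.7% and 95.1% in 8C. The covered share was 0.316% and 0.625% in MO, 0.190% and 0.443% in BL, 0.0556% and 0.104% in ICM, and 0.443% and 0.372% in TE. Most erased bins were far from the threshold on both sides. No late list covered any base of 10232 of the bins (94.1%), while in 204 bins the highest coverage in a late list was between 40% and the 50% threshold. Just outside the threshold lay 143 early-marked bins whose highest late coverage was 50% to under 60%. On the early side, 5087 erased bins (46.8%) were covered in full in all 6 lists, 857 had a lowest coverage of 50% to under 60%, and 1238 bins with no late mark missed the choice with a lowest early coverage of 40% to under 50%.

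The 2C and 8A lists had no part in the choice of bins. Both 2C lists marked 8945 erased bins (82.3%), against 3.93% of all autosomal bins, and covered 83.8% and 81.9% of their bases. Both 8A lists marked 9921 erased bins (91.3%), against 6.13% of all bins, and covered 89.3% and 90.4%. H3K9me3 thus lay over most erased bins at every stage assayed up to 8 cells. The 2C libraries were the lowest of the 5 early groups, of which GV, 4C and 8C were high by choice. Over all autosomal bins H3K9me3 also covered least in 2C, at 5.09%, against 6.74% in 8C to 7.51% in GV. Relative to the genome, the erased bins were at 16.3 times in 2C, and at 12.4 times (8A) to 14.0 times (8C) in the others. Choosing the bins without the 8C lists, an alternative added after the values had been seen, gave 12436 bins, of which the 8C lists marked 90.8% and 93.0% and the 8A lists 90.5% and 91.3%.

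Loss in the late lists was the more frequent outcome among the early-marked bins. Of the 15992, 10872 were marked in none of the 8 late lists, 901 (5.63%) were marked in all 8 and serve below as the kept bins, and 4219 lay between. Single late lists marked from 9.74% of the early-marked bins in an ICM list (3.94% of all bins) to 22.6% in a TE list (6.36%). The early-marked bins were thus still marked more often than all bins in these lists. The 4219 intermediate bins were spread over all counts of late lists, from 897 bins in 1 list to 384 bins in 7. Across all autosomal bins the late lists still covered much: H3K9me3 covered 6.74% ± 0.0207 (SD, n = 2) in 8C and 5.17% ± 0.836 in MO.

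**Figure D1:**
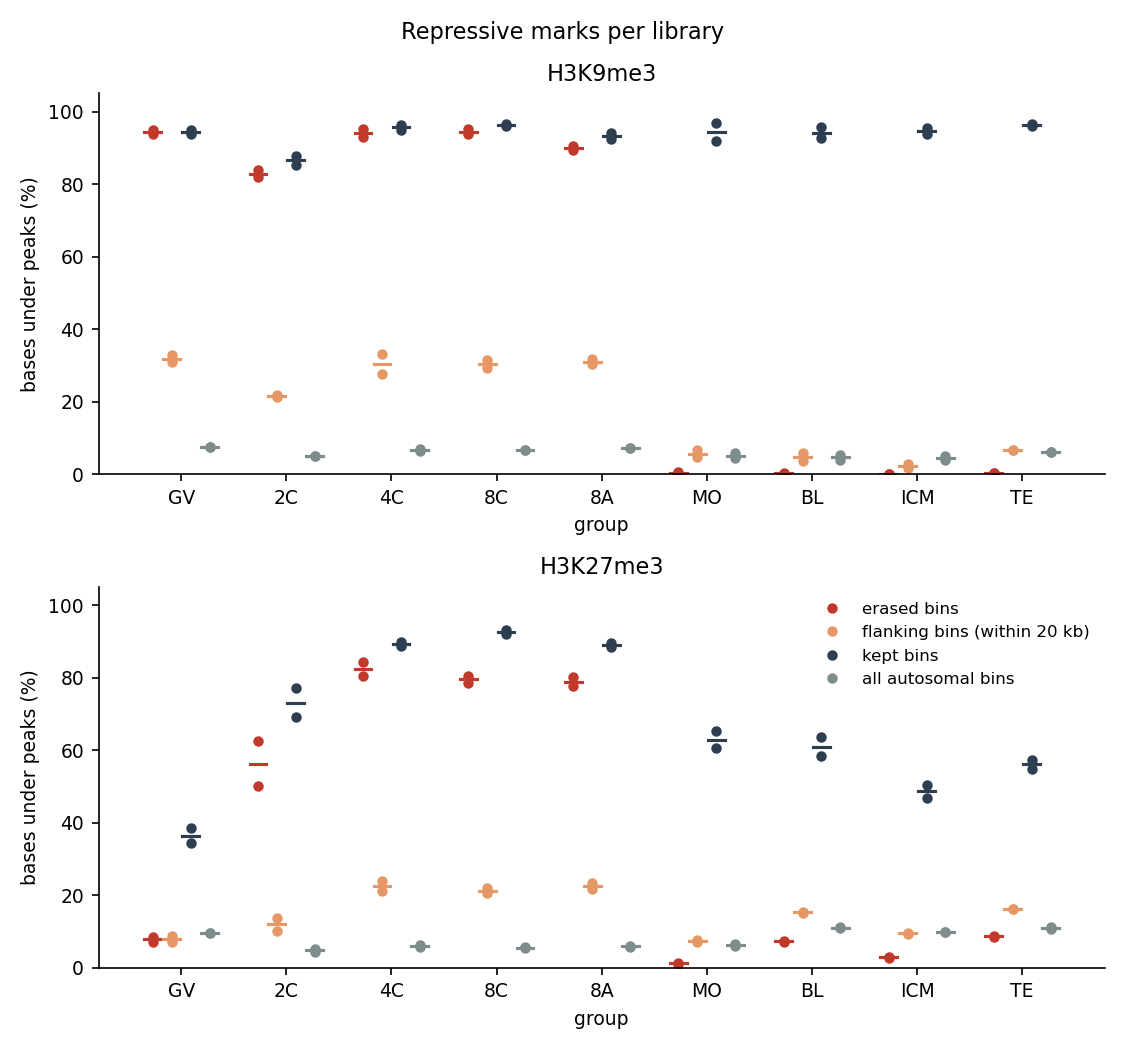
Share of bases under H3K9me3 peaks (top) and H3K27me3 peaks (bottom) in each group, 1 point per library, for erased, flanking, kept and all autosomal bins. In erased bins H3K27me3 was between 78.7% and 80.4% in 8C and at 1.32% and 1.13% in MO, while in kept bins it was 65.2% and 60.5% in MO.

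H3K27me3 accompanied H3K9me3 on the erased bins during cleavage and was nearly absent from them in the morula. Its peaks covered 7.22% and 8.58% of the erased bases in the GV libraries, 50.1% and 62.5% in 2C, 84.3% and 80.4% in 4C, 78.7% and 80.4% in 8C, and 77.7% and 80.2% in 8A. In MO the shares were 1.32% and 1.13%. The oocyte and morula libraries were thus low and the cleavage libraries high, with no overlap between them. Over all autosomal bins H3K27me3 covered 9.55% ± 0.00199 (SD, n = 2) in GV, 5.56% ± 0.0820 in 8C and 6.28% ± 0.390 in MO, so the erased bins were below the genome in GV, 14.3 times the genome in 8C and 0.195 times the genome in MO.

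Counted by bin, with marked again meaning at least 50% covered, both H3K27me3 lists marked 580 erased bins in GV (5.33%, against 7.58% of all bins) and 5430 in 2C (49.9%, against 3.52%). The count was 8814 in 4C (81.1%, against 4.76%), 8406 in 8C (77.3%, against 4.52%) and 8428 in 8A (77.5%, against 4.94%). Of the 8814 bins marked in 4C, 7355 (83.4%) were also marked in both 8C lists, against 77.3% of all erased bins. H3K27me3 was in both 4C lists and neither GV list at 7681 erased bins (70.6%), against 3.20% of all bins and 48.4% of the kept bins.

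After cleavage, H3K27me3 did not stay where H3K9me3 was lost. Both MO lists marked 96 erased bins (0.883%, against 5.41% of all bins), and of the 8406 bins with H3K27me3 in 8C, 75 (0.892%) had it in MO, against 25.3% of all bins with H3K27me3 in 8C. It was in both 8C lists and neither MO list at 8264 erased bins (76.0%), against 3.13% of all bins and 24.5% of the kept bins. The same count against BL was 7653 (70.4%, against 2.67%), against ICM 8110 (74.6%, against 3.07%) and against TE 7522 (69.2%, against 2.66%). In the blastocyst, 671 erased bins were marked in BL (6.17%, against 10.0% of all bins), 247 in ICM (2.27%, against 8.89%) and 833 in TE (7.66%, against 9.96%). Bins with H3K27me3 in a late group and in neither 8C list numbered 5 in MO (0.0460%, against 3.84%), 50 in BL (0.460%, against 7.77%), 20 in ICM (0.184%, against 7.12%) and 63 in TE (0.579%, against 7.68%). These counts are limited by the choice of denominator, since 837 erased bins (7.70%, against 93.1% of all bins) had it in neither 8C list. Of these 837, both lists marked 0.597% in MO, 5.97% in BL, 2.39% in ICM and 7.53% in TE. Of the 833 bins marked in TE, 644 (77.3%) were marked in 8C, the same share as of all erased bins.

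The kept bins, which have H3K9me3 in every late list by choice, had H3K27me3 late as well in part. H3K27me3 covered 92.1% and 93.2% of the kept bases in 8C, 65.2% and 60.5% in MO, 63.5% and 58.3% in BL, 46.9% and 50.5% in ICM, and 54.9% and 57.4% in TE. Both MO lists marked 59.6% of the kept bins with H3K27me3, against 0.883% of the erased ones. In ICM both lists marked 45.1% of the kept bins and neither list marked 43.7%. The kept bins also had more H3K27me3 in the oocyte, 34.4% and 38.5% of their bases.

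H3K27ac was the most widespread active histone mark on the erased bins from the morula on. It covered 0.334% and 0.389% of the erased bases in GV, 1.71% and 2.56% in 2C, 0.591% and 0.572% in 4C, 1.73% and 1.35% in 8C, and 2.52% and 2.51% in 8A. The shares were 16.5% and 12.9% in MO, 7.34% and 8.17% in BL, 17.3% and 15.3% in ICM, and 9.52% and 9.92% in TE. Every library from MO on was thus above every earlier one. The erased bins were at 0.426 times the genome in 8C and between 3.21 and 4.29 times the genome in the 4 late groups. Over all autosomal bins H3K27ac covered 3.62% ± 0.0236 (SD, n = 2) in 8C and 4.58% ± 0.0725 in MO.

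For H3K27ac, H3K4me3 and ATAC, whose peaks are narrow, a bin counted as holding the signal where at least 500 bases of it were covered in all libraries of a group. Before the morula H3K27ac was held in 112 erased bins in GV (1.03%, against 12.8% of all bins), 472 in 2C (4.34%, against 6.13%), 114 in 4C (1.05%, against 4.34%), 364 in 8C (3.35%, against 8.73%) and 683 in 8A (6.28%, against 10.8%). Each of these shares was below that of all bins. In the late groups it was held in 3246 in MO (29.9%, against 11.1%), 1932 in BL (17.8%, against 5.40%), 3460 in ICM (31.8%, against 8.68%) and 2188 in TE (20.1%, against 5.72%). Each of these was above it. The order of the late groups depended on list length: with the lists shortened by score to the shortest of the assay, the share was 10.8% in MO (3.41% of all bins) and 15.6% in BL (4.82%). In the kept bins the shares were 5.44% in MO, 3.11% in BL, 4.11% in ICM and 4.00% in TE.

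Most of this acetylation was at bins without it in 8C. H3K27ac was held in both MO lists and neither 8C list at 2785 erased bins (25.6%, against 6.57% of all bins), in BL at 1677 (15.4%, against 2.97%), in ICM at 3024 (27.8%, against 5.16%) and in TE at 1935 (17.8%, against 3.32%). The reverse, H3K27ac in both 8C lists and neither MO list, was found at 65 erased bins (0.598%, against 4.61%). Of the 3246 bins with H3K27ac in MO, 2292 (70.6%, against 56.4% of all bins with H3K27ac in MO) also held it in ICM and 1464 (45.1%, against 36.6%) in TE. All 4 late groups held it at 1182 erased bins (10.9%, against 3.31%).

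Open chromatin covered more of the erased bases than H3K27ac in every BL and TE library and less in every ICM library. The group means over all autosomal bins had the same order, with H3K27ac at 2.09% in BL, 3.81% in ICM and 2.37% in TE. ATAC peaks covered 9.54%, 16.4% and 19.8% of the erased bases in the 3 BL libraries, 10.1%, 11.6% and 9.47% in ICM, and 12.5%, 15.1% and 11.6% in TE. The BL libraries spread widely and overlapped both separated lineages. Over all autosomal bins ATAC covered 4.03% ± 0.728 (SD, n = 3) in BL, 3.47% ± 0.343 in ICM and 3.53% ± 0.333 in TE, so the erased bins were at 3.78, 2.99 and 3.70 times the genome. For H3K27ac these ratios were 3.71, 4.29 and 4.11. All 3 libraries were open at 3502 erased bins in BL (32.2%, against 10.1% of all bins), 2866 in ICM (26.4%, against 9.48%) and 3559 in TE (32.7%, against 9.63%). The kept bins were open at 7.10% in BL, 6.44% in ICM and 6.22% in TE. All 3 groups were open at 2076 erased bins (19.1%, against 6.41%). The first BL ATAC library limits the BL count: without it, 45.2% of the erased bins were open in BL.

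H3K4me3 took a smaller place. It covered 0.458% and 0.625% of the erased bases in GV, 1.44% and 3.15% in 8C, 1.70% and 2.11% in MO, 3.58% and 4.16% in BL, 2.01% and 2.10% in ICM, and 3.80% and 3.28% in TE. The 4C libraries, at 2.51% and 3.87%, overlapped the BL and TE range, so H3K4me3 did not separate early from late groups as H3K27ac did. It was held in 191 erased bins in GV (1.76%, against 16.2% of all bins), 531 in 8C (4.88%, against 7.83%), 624 in MO (5.74%, against 4.80%), 1071 in BL (9.85%, against 4.72%), 627 in ICM (5.77%, against 3.82%) and 1001 in TE (9.21%, against 4.52%). Held in the late group and in neither 8C list, it was found at 284 bins for MO (2.61%, against 0.754%), 626 for BL (5.76%, against 0.925%), 273 for ICM (2.51%, against 0.444%) and 565 for TE (5.20%, against 0.775%).

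**Figure D2:**
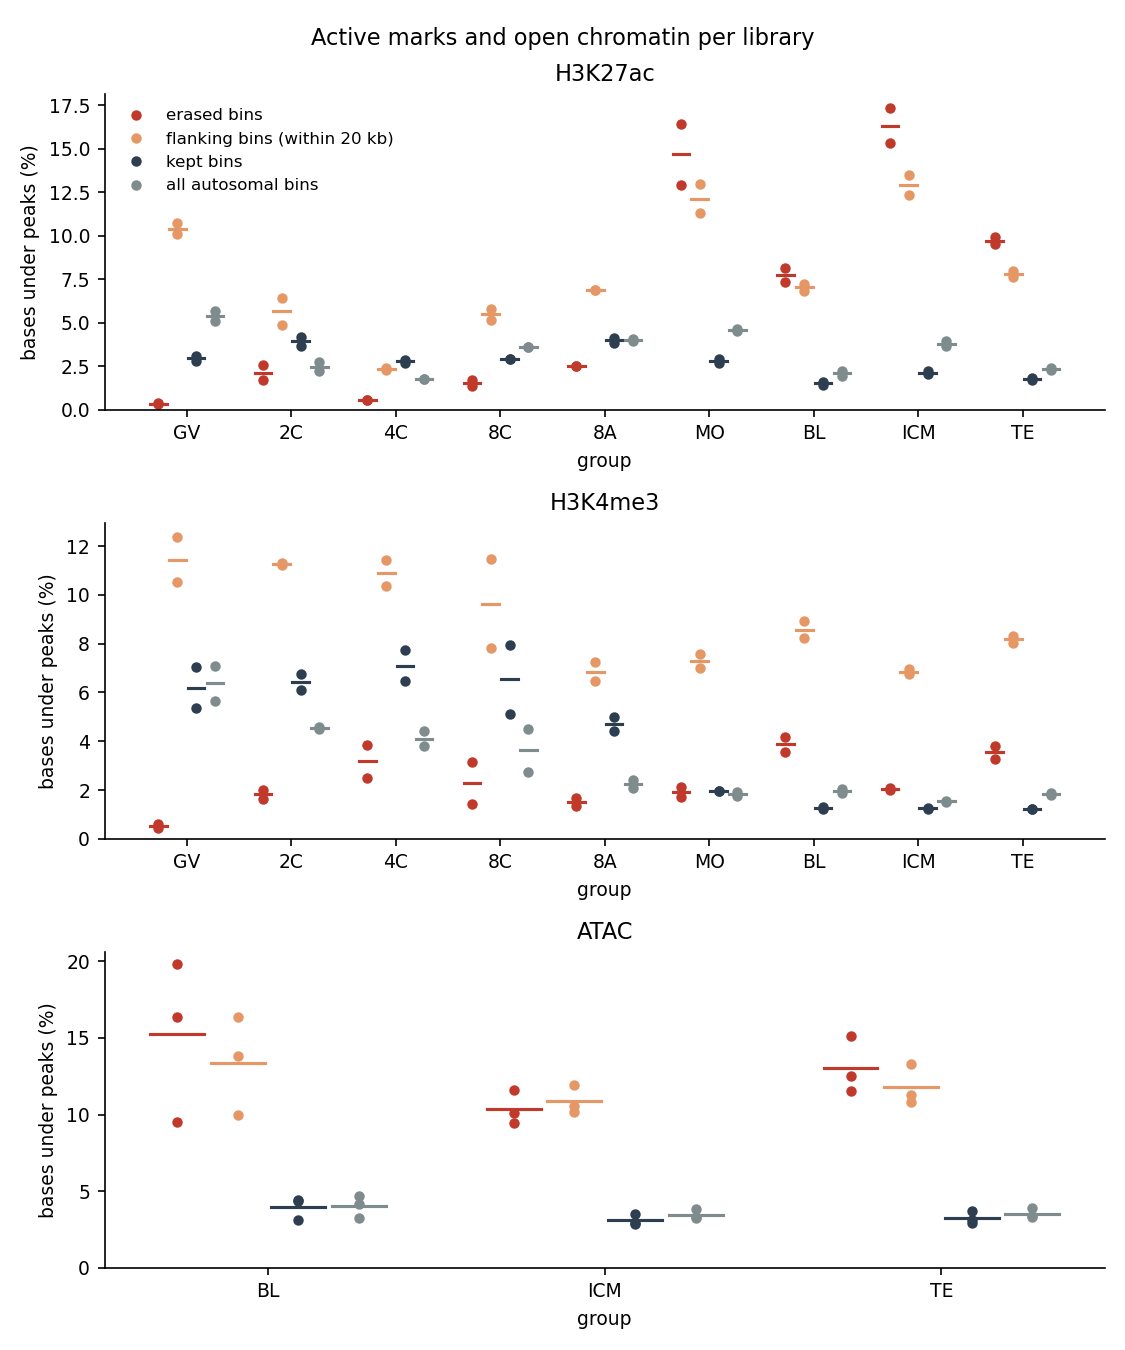
Share of bases under H3K27ac, H3K4me3 and ATAC peaks in each group, 1 point per library, for erased, flanking, kept and all autosomal bins. In erased bins H3K27ac lay between 0.334% and 2.56% in the groups up to 8 cells and between 7.34% and 17.3% from the morula on. ATAC was profiled in BL, ICM and TE.

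The late signals overlapped on the same bins to different degrees. Of the erased bins open in ICM, 77.1% also held H3K27ac, against 63.4% of all bins open in ICM. In BL these shares were 44.7% and 42.7%, and in TE 51.3% and 48.2%, so the erased bins were near the genome in both. Openness without H3K27ac in any library was found at 1600 erased bins in BL (14.7%, against 4.98% of all bins), 344 in ICM (3.16%, against 2.48%) and 1304 in TE (12.0%, against 4.02%). Erased bins with H3K4me3 were open about as often as all bins with it, at 89.3% against 88.9% in BL, 89.2% against 91.0% in ICM and 92.3% against 89.6% in TE. They also held H3K27ac at 72.8% against 60.6% in BL, 95.2% against 80.2% in ICM and 76.7% against 61.7% in TE. Of the erased bins with H3K27me3, 180 (26.8%, against 15.8% of all bins with it) were open in BL, 58 (23.5%, against 12.1%) in ICM and 147 (17.6%, against 11.8%) in TE.

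By combination, BL had 1562 erased bins with ATAC alone (14.4%, against 3.28% of all bins), 832 with ATAC and H3K27ac (7.65%, against 1.55%), 725 with ATAC, H3K27ac and H3K4me3 (6.67%, against 2.66%) and 490 with H3K27me3 alone (4.51%, against 8.42%). In ICM the most frequent combinations were ATAC with H3K27ac at 1660 bins (15.3%, against 3.10%) and H3K27ac alone at 1192 (11.0%, against 2.44%). In MO, where ATAC was not profiled, H3K27ac alone was at 2691 bins (24.8%, against 7.67%) and H3K27ac with H3K4me3 at 532 (4.89%, against 3.19%).

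Over all 4 late groups, 5809 erased bins (53.4%, against 19.1% of all bins) held H3K27ac, H3K4me3 or ATAC in all libraries of at least 1 group. An active signal without H3K27me3 was at 5407 (49.7%, against 16.2%), both kinds of signal at 402 (3.70%, against 2.89%), and H3K27me3 without an active signal at 615 (5.66%, against 10.1%). None of the 4 signals was held at 4448 erased bins (40.9%, against 70.8%). Within a single group the count without a signal cannot be smaller than this. In BL 6450 erased bins (59.3%, against 80.0%) held none of them, in ICM 6558 (60.3%, against 79.9%) and in TE 6217 (57.2%, against 80.2%). In MO, 7477 (68.8%, against 82.6%) held none of the 3 other marks. The kept bins were divided otherwise, with H3K27me3 alone at 68.0%, an active signal alone at 2.66%, both at 10.1% and none at 19.2%.

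**Figure D3:**
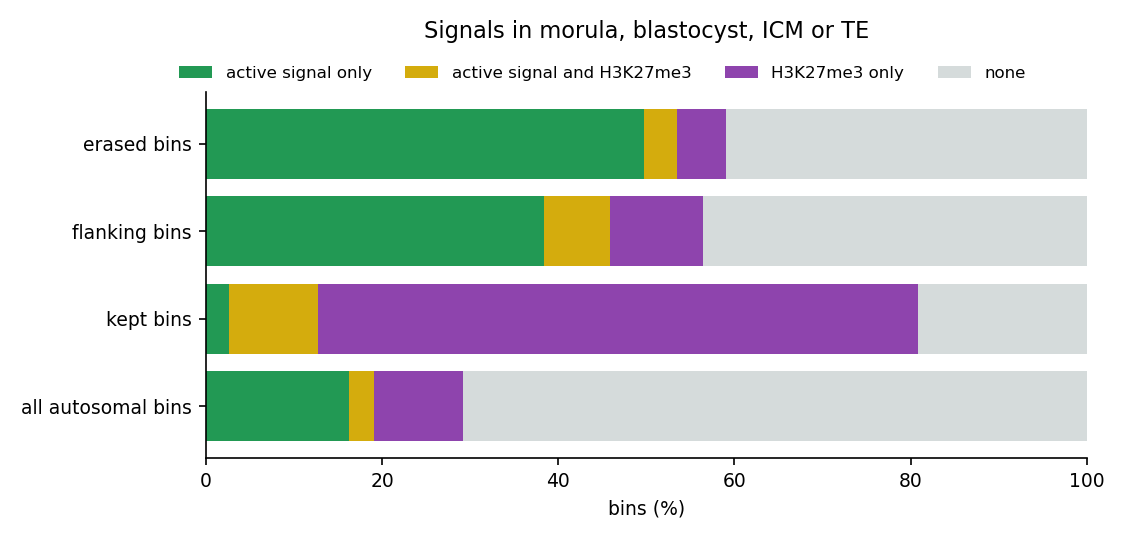
Share of bins by the signals held in all libraries of at least 1 of MO, BL, ICM and TE, where an active signal is H3K27ac, H3K4me3 or ATAC. An active signal without H3K27me3 was at 49.7% of erased bins, 38.4% of flanking bins, 2.66% of kept bins and 16.2% of all autosomal bins.

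Much of this active signal also lay beside the erased bins. The 24327 other bins within 20 kb of an erased bin, called flanking bins, held an active signal in a late group at 45.9%, against 53.4% of the erased bins and 19.1% of all bins. H3K27ac covered 13.0% and 11.3% of the flanking bases in MO, 6.82% and 7.26% in BL, 13.5% and 12.4% in ICM, and 7.65% and 7.97% in TE. Library by library, the erased bins had 1.08 to 1.28 times the H3K27ac coverage of their flanks in the 8 late libraries, and 0.261 and 0.298 times in 8C. ATAC coverage was above that of the flanks in 2 of 3 BL libraries (ratios of 0.958 to 1.21), in 0 of 3 ICM libraries (0.931 to 0.970) and in 3 of 3 TE libraries (1.07 to 1.14). H3K4me3 was below that of the flanks in every library, at 0.0436 to 0.467 times.

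For H3K27ac the erased bins were farther from their flanks before the morula than after it. The flanks had H3K27ac on 10.1% and 10.7% of their bases in GV and 5.82% and 5.16% in 8C, where the erased bins had at most 1.73%. They had H3K4me3 on 10.5% and 12.4% in GV and 8.23% and 8.91% in BL. H3K27me3 was 0.823 and 1.2 times the flanks in the GV libraries, 3.44 to 4.89 times in the 2C, 4C, 8C and 8A libraries, 0.156 and 0.171 times in MO, and 0.293 to 0.540 times in BL, ICM and TE. H3K4me3 was 0.243 and 0.339 times the flanks in 4C, 0.242 and 0.277 times in MO and 0.435 and 0.467 times in BL. H3K27ac held in MO and in neither 8C list was at 25.6% of the erased bins, 16.1% of the flanking bins and 3.22% of the kept bins.

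**Figure D4:**
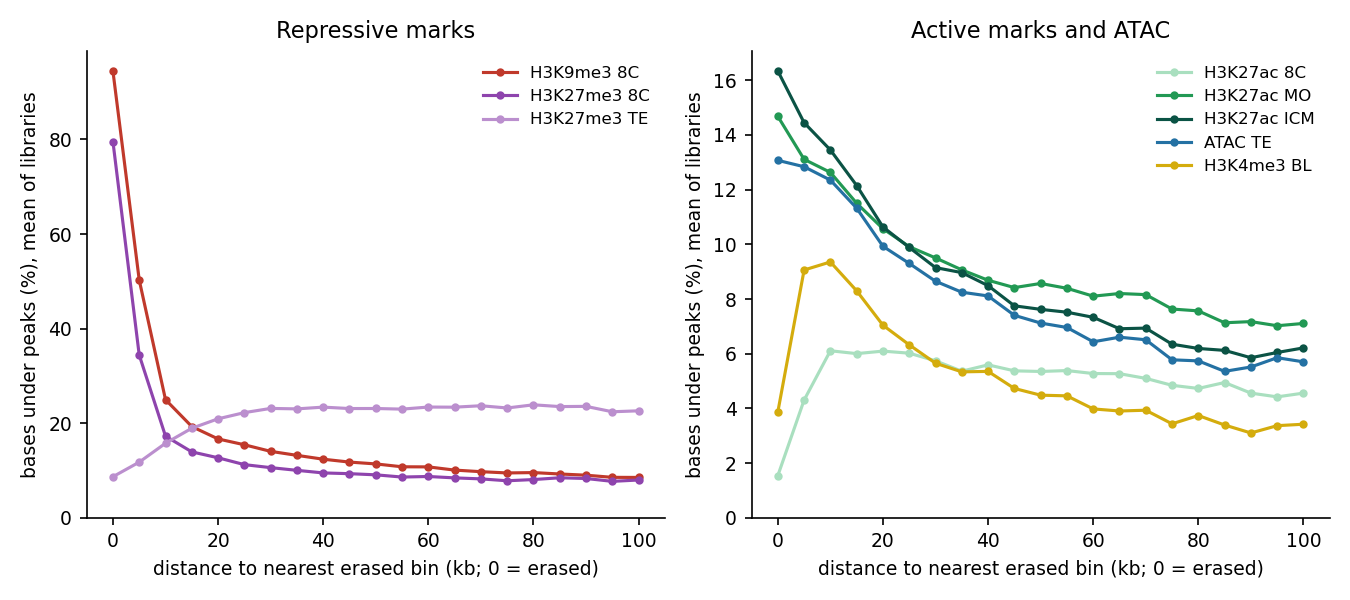
Share of bases under peaks, as the mean of the libraries of a group, by distance in kb from the nearest erased bin (0 is the erased bins themselves). H3K9me3 in 8C was 94.4% in the bins, 50.3% in the next 5 kb and 16.7% at 20 kb, while H3K27ac in MO was 14.7%, 13.1% and 10.6% at the same distances.

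With distance, the repressive marks of 8C dropped off within a few bins: H3K9me3 was 50.3% at 5 kb, 25.0% at 10 kb and 2.47% beyond 100 kb, and H3K27me3 was 34.4%, 17.3% and 2.24%. The late active signals declined slowly, with H3K27ac in ICM at 16.3% in the bins, 14.4% at 5 kb, 10.6% at 20 kb and 2.47% beyond 100 kb, and ATAC in TE at 13.1%, 12.8%, 9.93% and 2.36%. H3K4me3 in BL was lower in the bins (3.87%) than at 10 kb (9.36%). H3K27me3 in TE was 8.69% in the bins, 15.8% at 10 kb, 22.6% at 100 kb and 9.22% beyond 100 kb. The erased bins were thus below their surroundings but near the bins beyond 100 kb.

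ICM and TE differed in which signal they held on the erased bins. H3K27ac was held in both ICM lists and neither TE list at 1309 bins (12.0%, against 3.56% of all bins), and the reverse was found at 294 (2.70%, against 1.12%). ATAC was held in all ICM and no TE libraries at 212 bins (1.95%, against 1.45%), and in all TE and no ICM libraries at 643 (5.91%, against 1.52%). For H3K4me3 the ICM count was 68 (0.625%, against 0.186%) and the TE count 360 (3.31%, against 0.697%). For H3K27me3 the ICM count was 69 (0.635%, against 1.16%) and the TE count 583 (5.36%, against 1.94%). In the separated lineages H3K27ac thus leaned to ICM, and openness, H3K4me3 and H3K27me3 leaned to TE. The flanking bins leaned the same way, with H3K27ac in ICM only at 8.64% and in TE only at 1.97%. For ATAC these shares of the flanking bins were 1.76% and 3.06%, for H3K4me3 0.448% and 2.16%, and for H3K27me3 0.954% and 5.77%. The kept bins had H3K27me3 in ICM only at 2.89% and in TE only at 7.21%. Over all bins H3K27ac also covered more in ICM, 3.81% ± 0.196 (SD, n = 2), than in TE, 2.37% ± 0.0802. Likewise H3K4me3 and H3K27me3 covered more of all bins in TE, 1.84% and 11.0%, than in ICM, 1.53% and 9.88%. The contribution of list length to the ICM and TE counts was not tested.

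With α-amanitin the erased bins still had both repressive marks. H3K9me3 covered 89.3% and 90.4% in 8A, below the 93.7% and 95.1% of the 8C libraries on which the bins were chosen, and the ranges of H3K27me3 overlapped. H3K9me3 in both 8C lists and neither 8A list was found at 222 bins (2.04%, against 0.377% of all bins). The reverse count is 0 because the bins were chosen on the 8C lists. H3K27me3 was held in 8C and not in 8A at 345 bins (3.17%, against 0.401%), and in 8A and not in 8C at 350 (3.22%, against 0.662%). For H3K27ac these counts were 151 (1.39%, against 2.92%) and 418 (3.84%, against 4.55%), and for H3K4me3 79 (0.727%, against 1.24%) and 7 (0.0644%, against 0.0579%). All these shares are of bins with or without the mark in 8C, so they are not rates of loss. Of bins with H3K27me3 in both 8C lists, the 345 were among 8406 erased bins, against 1996 among 22467 of all bins. For H3K9me3 the 222 were among 10872 erased bins, against 1877 among 28063 of all bins. No MO or BL embryos grown with the inhibitor are in the series, so the loss itself was not observed under it.

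The erased bins were gathered into 4311 uninterrupted runs, with a median length of 10 kb and a longest of 135 kb. Of 5607 runs of early-marked bins, 3549 (63.3%) were erased from end to end and held 9038 of the erased bins (83.1%), 577 were erased in part, and 1481 held no erased bin. The H3K9me3 peaks over erased bins had median widths of 11.6 to 14.6 kb in the 6 early lists and those over kept bins 14.2 to 17.6 kb, against 8.0 to 10.6 kb for all peaks. The choice of bins used these lists and favours wide peaks, so the widths are a description. Single bins made up 1851 runs, and 81 runs of 10 bins or more held 1083 bins (9.96%). Longer runs had more H3K27me3 in 8C, marked in 59.3% of the bins of single-bin runs, 74.7% in runs of 2 to 4 bins, 87.0% in runs of 5 to 9 and 94.0% in longer ones. They had less in TE, 12.9%, 8.55%, 4.16% and 4.06% in the same order. H3K27ac in ICM was held in 23.8%, 31.1%, 36.6% and 36.2%, and ATAC in TE in 26.6%, 32.2%, 36.5% and 35.5%, again in that order.

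Bins with and without H3K27me3 in 8C differed by a few percentage points in their later signals, a description with no test. Of the 8406 bins with H3K27me3 in both 8C lists, 30.4% held H3K27ac in MO, against 30.7% of the 837 with it in neither list. H3K27ac in ICM was held in 33.0% and 29%, ATAC in TE in 33.9% and 29.7%, H3K4me3 in BL in 9.87% and 11.7%, and H3K27me3 in BL in 6.32% and 5.97%.

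**Figure D5:**
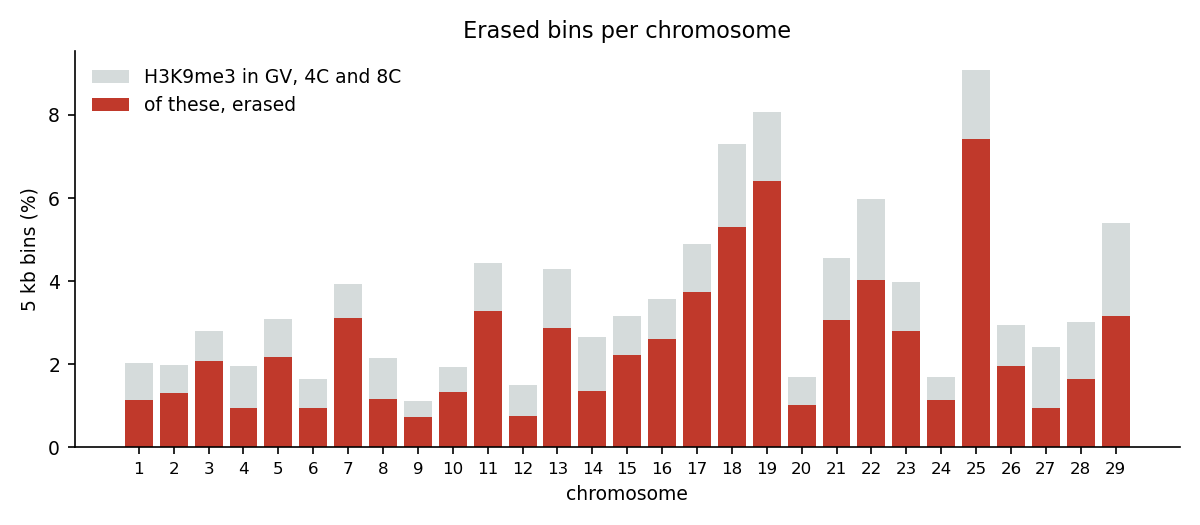
Share of 5 kb bins per autosome that had H3K9me3 in GV, 4C and 8C (grey) and that were erased (red). Erased bins were 7.43% of chromosome 25 and 0.742% of chromosome 9.

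The erased bins were unevenly spread over the chromosomes. They made up 7.43% of the bins of chromosome 25 (629 bins), 6.42% of chromosome 19 (814), 5.29% of chromosome 18 (697) and 4.03% of chromosome 22 (490). The share was lowest on chromosomes 9 (0.742%, 155 bins) and 12 (0.751%, 131 bins). The erased share of the early-marked bins ran from 39.5% on chromosome 27 to 81.7% on chromosome 25. Within chromosomes, the share of erased bins that held H3K27ac in MO was above the share of all bins of the chromosome on 29 of 29, at 1.59 times on chromosome 19 to 3.72 times on chromosome 27 with a median of 2.61. For bins open in TE this ratio ran from 1.67 on chromosome 19 to 7.23 on chromosome 12. For bins marked by H3K27me3 in BL it was above 1 on 5 of 29 chromosomes, from 0.0753 on chromosome 25 to 1.96 on chromosome 10.

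Many of the bins lay toward the ends of chromosomes with the higher coordinates: 3498 (32.2%) were within 10 Mb of that end, against 11.7% of all bins and 62.4% of the kept bins. Within 2 Mb the shares were 8.74%, 2.33% and 25.3%. The early-marked bins, from which the erased bins were drawn, were above the erased bins at both distances, with 37.9% within 10 Mb and 10.7% within 2 Mb. At the low-coordinate end, 10.3% of the erased bins lay within 10 Mb, against 11.7% of all bins. Of the erased bins, 1.98% lay within 50 kb of a kept bin, against 1.48% of all bins, and the median distance was 2.54 Mb, against 8.13 Mb for all bins.

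Single runs are given next by chromosome, start and end in the ARS-UCD1.2 build, counted from 1. They are the 5 longest runs and, for each of the other signals, the 3 runs of at least 2 bins with the highest mean coverage over BL, ICM and TE, so the late values that ranked them are descriptions. The longest was chr2:133205001-133340000 with 27 bins. H3K27me3 covered 96.9% and 99.1% of it in 8C and 0% in every library from MO on. H3K27ac was 0% in both 8C libraries, 31.8% and 24.7% in MO, 12.3% and 15.1% in BL, 34.0% and 29.9% in ICM, and 25.6% and 26.9% in TE. ATAC covered 11.3%, 27.1% and 38.2% in BL, 11.8%, 15.0% and 11.3% in ICM, and 17.4%, 27.3% and 16.4% in TE. It was not profiled before the blastocyst. This run thus lost both repressive marks, and part of it had H3K27ac from MO on and open chromatin in BL, ICM and TE.

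The other long runs showed how far that outcome varied. On chr3:115055001-115180000, 125 kb long, H3K27ac was between 1.2% and 6.36% in the late libraries and ATAC between 4.04% and 9.60%. On chr5:109155001-109275000, 120 kb long, H3K27ac was 1.58% and 3.29% in MO and 6.25% and 6.50% in 8A. On chr25:40990001-41110000, also 120 kb, ATAC separated the lineages, with 2.88%, 4.42% and 3.5% in ICM and 27.3%, 30.4% and 25.9% in TE, while H3K27ac was higher in ICM (22.5% and 21%) than in TE (15.6% and 14.9%). On chr6:115590001-115700000, 110 kb long, no H3K4me3 library had a peak, and H3K27ac was 10.7% and 5.82% in MO and 3.55% and 1.36% in ICM.

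The runs with the most late H3K27ac were close to full coverage. On chr3:117155001-117165000 it was 8.00% and 0% in 8C, 99.0% and 100% in MO, 100% in both ICM libraries and 99.0% and 98.0% in TE, and ATAC in TE was 65.0%, 67.0% and 63.0%. On chr19:39470001-39480000 it was 0% and 6.00% in 8C and 95.0% and 94.5% in MO, and H3K4me3, at 0% in all libraries up to 8 cells, was 29.5% and 39.5% in BL and 51.5% and 43.0% in TE. On chr19:27045001-27055000, also among the runs with the most H3K4me3, H3K27ac was already 49.0% and 51.5% in 8C, beside H3K9me3 that met the choice. H3K4me3 there was 15.5% and 32.0% in 8C and 81.0% and 91.0% in BL.

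The run with the most late H3K4me3 was chr17:72180001-72195000, which was also the third for ATAC. H3K4me3 covered 4.67% and 5.33% of it in GV, 40.3% and 55.0% in 8C, 99.0% and 99.3% in BL, 91.0% and 88.7% in ICM and 100% in both TE libraries. ATAC in TE was 87.7%, 87.3% and 77.0%. The third run by H3K4me3, chr11:106200001-106210000, had 19.0% and 25.0% in 8C and 84.0% and 75.5% in BL, and H3K27me3 on 100% of it in both 8C libraries and on 0% from MO on. Both runs held the promoter mark already under H3K9me3, below the BL level but not below every late library. In 4C it covered 31.7% and 57.7% of the chr17 run, against 45.0% and 53.7% in MO. On the chr11 run it was 28.5% and 70.0% in 4C, 32.5% and 42.0% in MO, and 41.5% and 53.0% in ICM.

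By ATAC, chr16:79510001-79520000 led, with 57.5%, 87.5% and 94.5% in BL, 78.5%, 85.0% and 75% in ICM, and 79.0%, 90.0% and 84.5% in TE. It still had H3K27me3 on 88.0% and 28.0% in MO. Next was chr9:95145001-95180000, a run of 35 kb, with 94.6%, 94.0% and 92.1% in TE against 71.3%, 72.4% and 67.0% in ICM, and H3K27ac of 0% in both 8C libraries and 67.9% and 65.6% in TE. Both of these runs were open in all 9 ATAC libraries.

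The 3 runs ranked highest by late H3K27me3 were covered in full in BL, ICM and TE. Equal values were ordered by chromosome and start, so other runs may be covered as fully. On chr5:113255001-113265000 it was 0% in both GV libraries, 100% and 90.0% in 4C, 92.0% and 86.0% in 8C, 0% in both MO libraries, and 100% in all 6 BL, ICM and TE libraries. On chr16:61370001-61380000 it was 96.0% and 94.0% in MO and 100% in the same 6 libraries, and H3K27ac was 19.5% and 29% in 8C and 0% from MO on. On chr18:26280001-26290000 it was 18.0% and 74.0% in 8C, 0% and 62.0% in MO and 100% in those 6 libraries, with ATAC of 24.0%, 39.0% and 68.5% in BL. In the first and last of these runs at least 1 morula library lacked H3K27me3 and the blastocyst libraries all held it.

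The peak lists differ in length between libraries, which bears on every count above. The H3K9me3 lists held 11209 to 23813 peaks, the H3K27me3 lists 14438 to 31472, the H3K27ac lists 60270 to 163589, the H3K4me3 lists 22745 to 185272 and the ATAC lists 100390 to 154483, and no pair of lists was identical. The lists give no read totals, so a bin outside a peak is a bin without a call, at a depth that is unknown. The smallest two-sided p of an exact permutation test of 2 libraries against 2 is 0.333, so no test of single groups was made.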

How the data were processed

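The authors deposited 1 peak list per library, so replicates were called separately. The cattle build was ARS-UCD1.2 and the tools included SICER, SAMtools 1.9, Picard 2.26.10, BWA 0.7.9a, cutadapt 1.8.3 and Trim Galore 0.4.0, per the submitters' processing notes. The deposited lists are named for epic2, so whether SICER or epic2 called the peaks is unclear. The caller's cutoff, control libraries and the treatment of duplicate or repeat-derived reads were not given in the sources used here, which bears on H3K9me3, a mark of repeats. Each deposited list gives 1 whole-number score per peak that the lists do not name. The score was used here to rank peaks within a list, for peak percentiles and for 2 alternatives.

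Bases under peaks were counted in 5 kb bins with pandas 2.3.3 and NumPy 2.4.6 under Python 3.11.15, and tested on simulated peaks. A peak's last base was included. A bin was marked by H3K9me3 or H3K27me3 at 50% covered, and held H3K27ac, H3K4me3 or ATAC at 500 bases (10%). Values are per library, with the SD over libraries, beside the same values in all autosomal, kept and flanking bins. The members, thresholds and lists were chosen with earlier results of these data known, and the flanking bins and the choice without 8C were added after values had been seen. No p-value was computed over bins, which are not replicates. Depth per sample is unknown, so no interval is given. Named runs were the 5 longest and the 3 highest per signal in BL, ICM and TE. Bins were compared under other thresholds, bin sizes, list lengths and with single libraries left out. No gene, repeat or sequence was analysed here, since the gene table is of ARS-UCD2.0, another assembly.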

Additional observations from a re-analysis of the deposited data

Results flagged for a closer look

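The X chromosome was outside the choice of bins, which took autosomes. By the same criteria, 146 of 27801 X bins (0.525%) were erased, which is 31.5% of the 463 X bins marked in all 6 early lists, and 148 were kept. H3K27ac covered 0% of the erased X bins in both 8C libraries (a mean of 1.07% over all X bins), 10.3% and 7.39% in MO (1.99%), 12.4% and 11.2% in ICM (1.24%), and 7.90% and 8.54% in TE (0.750%). H3K27me3 covered 64.0% and 67.6% in 8C (3.31%) and 0.219% and 0.521% in MO (4.04%), and ATAC covered 8.82%, 11.1% and 9.01% in TE (1.38%). The 8A libraries, which the criteria did not use, had H3K9me3 on 76.3% and 79.0% (2.45%). No group had enough libraries per assay for a check of single outlying libraries.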

How the results depend on the processing

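No paired analysis was possible because the results come from no test, so no replicate block could be fitted. Each of the 7 percentages stayed on the same side of the value over all bins under every alternative run. Marking H3K9me3 at 25% covered gave 5.80% of erased bins with H3K27me3 in BL, and at 75% covered 6.80%, both against 10.0% of all bins. At 75%, 88.9% were marked in 8A (4.62% of all bins). Bins of 10 kb gave 5598 erased bins, 90.5% marked in 8A (6.16% of all bins), and in BL 20.5% with H3K27ac (6.10%) and 12.6% with H3K4me3 (6.11%). Lists shortened by score to the shortest of their assay gave 89.8% in 8A (4.08% of all bins) and H3K27ac at 10.8% in MO (3.41%). In BL they gave H3K27me3 at 1.42% (4.02%), H3K27ac at 15.6% (4.82%) and H3K4me3 at 5.50% (3.56%). Leaving out the lowest 25% of peaks by score gave H3K27me3 in BL at 5.46% (9.06% of all bins). Requiring both 2C lists gave 95.7% in 8A. Choosing bins without the 8C lists gave 12436 bins and 86.0% in both 8A lists. Counting any covered base gave in BL H3K27me3 at 8.17% (12.9% of all bins), H3K27ac at 23.9% (7.54%) and H3K4me3 at 14.2% (6.04%). It gave ATAC at 45.6% (16.1%) and none of the signals at 45.9% (72.6%). Asking 50% of the bin for the active signals and 25% for H3K27me3 gave H3K27ac in MO at 8.63% (2.10% of all bins). In BL it gave H3K27me3 at 7.20% (11.6%), H3K27ac at 4.34% (0.935%), H3K4me3 at 1.64% (1.10%), ATAC at 2.82% (0.656%) and none at 86.6% (86.7%). The share of bins with a late active signal thus depends on how much of a bin must be covered. Each active signal stayed above its share of all bins. Leaving out 1 library gave 10885 to 11664 erased bins, 88.0% to 95.0% in 8A, H3K27ac at 29.3% to 40.1% in MO, and in BL H3K27me3 at 6.16% to 7.77%, H3K27ac at 17.1% to 21.5%, H3K4me3 at 9.55% to 12.4%, ATAC at 31.5% to 45.2% and none at 49.1% to 59.97%. The causes of these shifts were not tested.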
